A study of Capra hircus with 12 samples.

Results

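The genes of glycolysis and of the hypoxia response were examined in cultured goat cells from both cartilage layers of the temporomandibular joint (TMJ). The set was a list of 39 symbols: 17 glycolytic enzymes, 5 regulators of glycolytic flux, 4 glucose and lactate transporters, 7 hypoxia-inducible factor (HIF) regulators and 6 HIF targets. Of these, 38 had a row in both count tables, among 28910 rows in each, and all 38 held at least 10 counts in at least 3 of the 6 libraries of each layer. LDHA, a lactate dehydrogenase subunit gene, had no row under that symbol. A row named LDH-A was tested among all genes. It was not counted as a member, so the enzyme counts, medians and shares below leave it out. Superficial layer (SLC) and middle layer (MLC) cells came from the jaw joints of young female goats collected at abattoirs and were expanded in monolayer before use. All cells received a short exposure to the inflammatory cytokine IL-1β. In each layer, 3 libraries were from cells given IL-1β alone and 3 from cells that were also transduced beforehand with an adenovirus carrying lysyl oxidase-like 2 (LOXL2), an enzyme that crosslinks collagen and elastin. Vehicle-treated cells were not analysed here, so no comparison tells what IL-1β itself did. The sources used here name no empty virus for the IL-1β libraries, so transduction and LOXL2 cannot be told apart. Nothing in the labels says that the 3 libraries of a group came from separate animals or cultures, so p-values measure only the spread between libraries, which may be technical.

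Glycolysis splits glucose into pyruvate, which is either reduced to lactate or passed to the mitochondria. Cartilage has no blood vessels, and its cells live at low oxygen and draw much of their energy from glycolysis. When oxygen falls, the prolyl hydroxylases (EGLN1, EGLN2, EGLN3) and the asparagine hydroxylase HIF1AN lose activity, VHL no longer marks HIF-1α (HIF1A) and HIF-2α (EPAS1) for destruction, and the HIFs switch on glucose transport, glycolysis and genes such as VEGFA.

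Libraries held 14158607 to 28931652 counts, and the members took 1.47% to 1.81% of them, most of it from the enzymes. All pairs of libraries of a group differed by more than sampling noise, and the first SLC IL-1β+LOXL2 library stood farthest from its group (chi-square per degree of freedom of 62.0 and 169 against the other libraries, and at most 36.0 in any pair without it). Members of that library lay nearer to the IL-1β mean than those of the other libraries of its group for 27 of 38 genes, and the same held for 33 of 38 in the first MLC IL-1β+LOXL2 library. The LOXL2 row gave no check of the labels. It was at 614 to 634 CPM (counts scaled to library size) under IL-1β and 457 to 559 CPM under IL-1β+LOXL2 in SLC, and at 768 to 877 and 744 to 816 CPM in MLC, and the species of the transgene is not given in the sources used here. The chondrocyte markers, 6 of 7 with a row, summed to 137 to 146 CPM in SLC and 591 to 700 CPM in MLC over both conditions. ACAN, SOX9, COMP and HAPLN1 were detected in all libraries and were higher in every MLC library than in any SLC library. COL2A1 had no counts in 5 of 6 SLC libraries, and MATN3 was very low throughout. The 3 superficial layer markers summed to 27.28 to 37.85 CPM in SLC and 14.46 to 19.89 CPM in MLC, most of it THBS4. PRG4 was at 3.6 to 5.5 CPM in SLC and 4.8 to 7.3 CPM in MLC. The fibroblast markers COL1A1, COL1A2 and COL3A1 were high throughout. The other listed fibroblast marker, PDGFRA, was lower. In SLC it was at 859.5 to 935 CPM under IL-1β and 432 to 727 CPM with LOXL2. In MLC it was at 974 to 979 CPM and 592.5 to 875 CPM. The 5 endothelial markers summed to 2.92 to 4.03 CPM in SLC and 3.64 to 5.24 CPM in MLC over both conditions, most of it VWF and TEK, and CDH5 had no counts in 10 of 12 libraries. The macrophage and leukocyte markers, 4 of 5 with a row, summed to 77.0 to 94.6 CPM under IL-1β and 55.2 to 96.2 CPM with LOXL2 in SLC, and to 95.4 to 141 and 83.7 to 100.5 CPM in MLC. Most of this was CD14, and PTPRC had no counts in 10 of 12 libraries. The summed level of 4 pericyte and smooth muscle markers, nearly all of it ACTA2, was 835 to 931 CPM in MLC under IL-1β and 1084 to 1400 CPM with LOXL2, and 1405 to 1828 against 1714 to 2026 CPM in SLC. The part of these cell types in the results was not tested.

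The main comparison asked which members differed between IL-1β+LOXL2 and IL-1β within each layer. In MLC, 10 of the 38 members passed the test (edgeR's quasi-likelihood test, Benjamini-Hochberg adjustment over all genes, threshold 0.05). Among them, 2 were higher with LOXL2, GAPDH and LDHB, against 9.88% of the 13806 genes tested. The other 8 were lower, HK2, PFKL, PFKFB2, SLC2A1, SLC2A3, SLC16A1, HIF1A and EPAS1, against 11.7% of all genes tested. In SLC, no member passed, and neither did any other of 14164 genes (0%). The smallest adjusted p of a member was 0.0706, and 15 members had an unadjusted p under 0.05, against 43.2% of all genes. DESeq2's Wald test called 3 SLC members higher (ENO2, LDHB and EGLN2) and 8 lower (HK2, PFKFB2, SLC2A1, SLC2A3, SLC16A1, HIF1A, EPAS1 and VEGFA), against 17.6% and 15.5% of all genes. In MLC it called 6 higher and 6 lower, against 12.4% and 14.6%, and 8 of the 10 members called by edgeR were among these.

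Which members passed depended on single libraries. Without the first SLC IL-1β+LOXL2 library, 15 SLC members were called higher and 11 lower, against 31.5% and 31.2% of the 14031 genes tested, and leaving out any other SLC library gave none among members or among all genes. In MLC, 22 members were called without the first IL-1β+LOXL2 library (10 higher, 12 lower), against 23.1% and 25.3% of all genes. Leaving out IL-1β replicate 1 or 3 or IL-1β+LOXL2 replicate 2 gave 0 calls there, among members and among all genes. Leaving out IL-1β replicate 2 gave 1 lower (PFKFB2) and none higher, against 4.53% and 1.59% of all genes. Leaving out IL-1β+LOXL2 replicate 3 gave 3 lower (EPAS1, HK2 and PFKFB2) and none higher, against 2.94% and 0.68%. In a fit on all 12 libraries, which share one estimate of the spread, 6 SLC members were called higher and 9 lower, against 22.5% and 18.7% of all genes, and no MLC member and no other gene was called. The 10 members called in MLC had the same direction in all of these fits, in both layers.

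**Figure D1:**
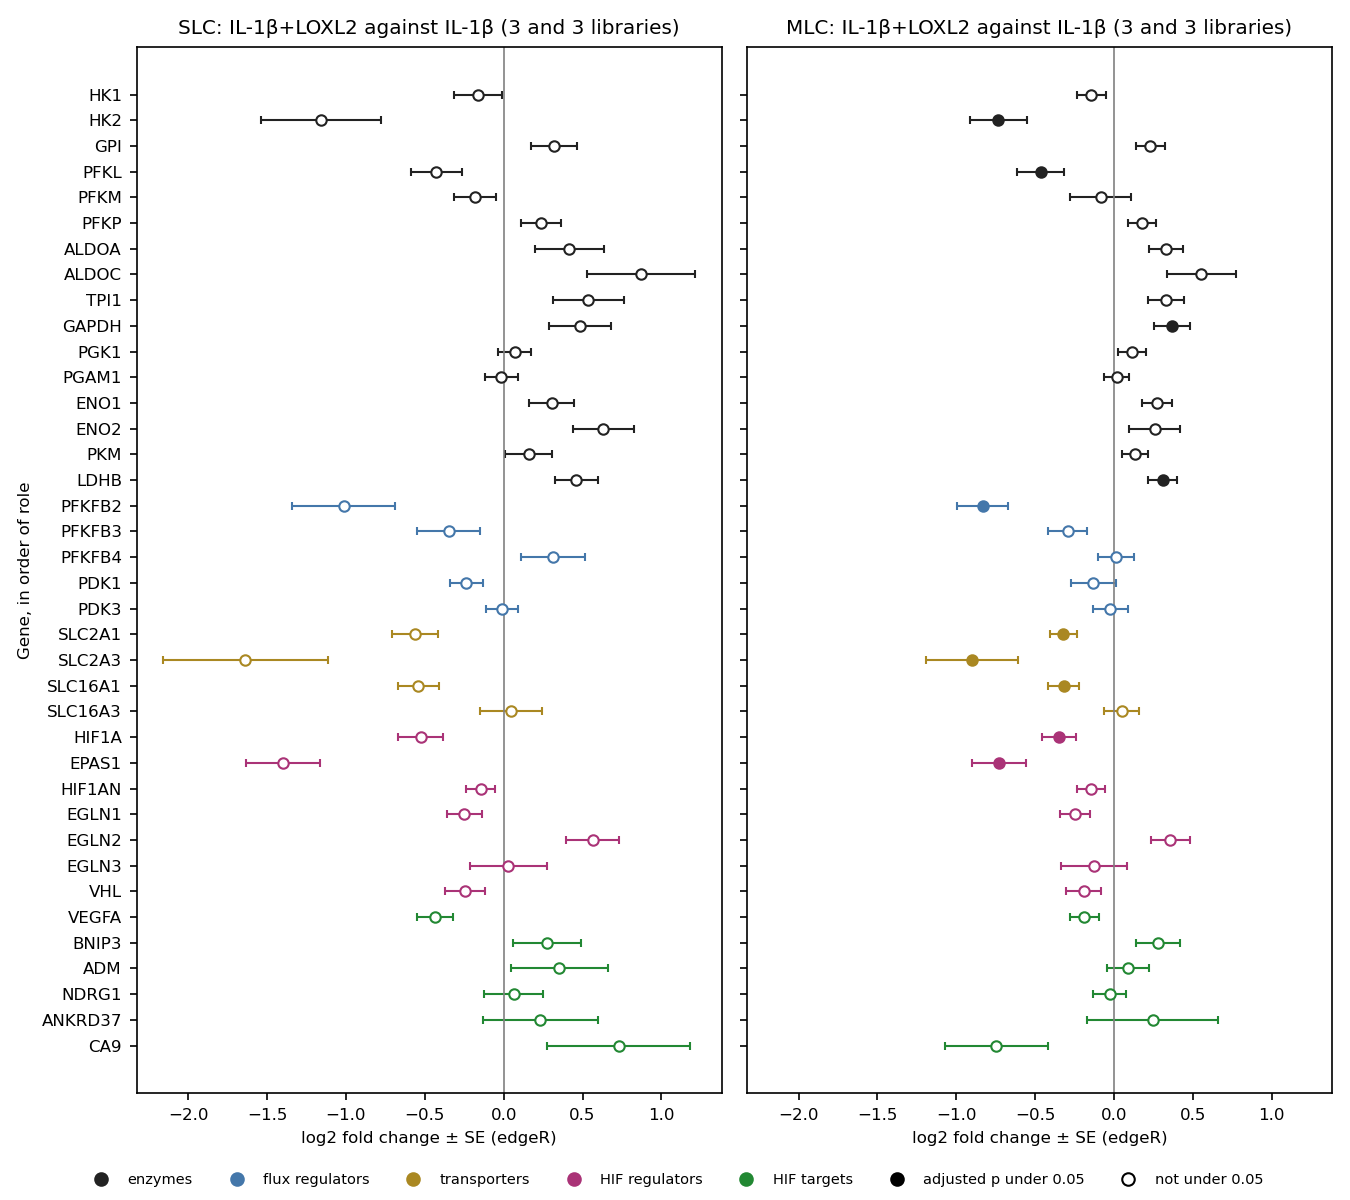
Log2 fold change with its standard error for IL-1β+LOXL2 over IL-1β (horizontal axis) of the 38 members (vertical axis), coloured by role, in SLC (left) and MLC (right). Filled points passed the adjusted p threshold, which 10 MLC members and no SLC member did, and the transporters and both HIF-α genes lie to the left of 0 in both layers except SLC16A3.

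Transporters were the role with the lowest median, -0.55 in SLC and -0.32 in MLC on the log2 scale, beside 0.01 in both layers over all genes tested. SLC2A3 (GLUT3) is a high-affinity glucose carrier. In SLC it was at 29.6, 32.6 and 25.9 CPM in the IL-1β libraries and at 17.4, 3.10 and 8.09 CPM in the IL-1β+LOXL2 libraries, replicates 1 to 3 in that order here and for each gene that follows. The groups did not overlap, the first treated library was the highest of its 3, and the log2 fold change of -1.64 ± 0.52 (SE) did not pass the test (adjusted p = 0.0731). MLC had 23.9, 29.7 and 27.1 CPM under IL-1β and 22.7, 13.5 and 6.84 CPM with LOXL2, a log2 fold change of -0.90 ± 0.29 (1.87-fold lower, adjusted p = 0.0455). DESeq2 gave it an adjusted p of 0.143 in MLC. The spread among the treated libraries was wide in both layers, with the highest 5.62 times the lowest in SLC and 3.32 times in MLC.

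SLC2A1 (GLUT1), the basal glucose carrier, was at 181, 240 and 211 CPM under IL-1β and 122, 153 and 158 CPM with LOXL2 in SLC, with a log2 fold change of -0.56 ± 0.15 (adjusted p = 0.0706). In MLC, 254, 290 and 261 CPM stood against 216, 218 and 211 CPM, and the level fell 1.25-fold (log2 fold change -0.32 ± 0.09, adjusted p = 0.0263). No treated library of either layer reached the lowest IL-1β library of that layer. SLC16A1 (MCT1), which moves lactate and pyruvate across the plasma membrane, went from 177, 182 and 169 CPM to 142, 108 and 115 CPM in SLC (-0.54 ± 0.13, adjusted p = 0.0706). Its MLC levels were 101, 98.5 and 96.2 CPM and then 88.6, 75.6 and 73.3 CPM, a 1.25-fold fall (-0.32 ± 0.10, adjusted p = 0.0388). SLC16A3 (MCT4), the lactate exporter of glycolytic cells and itself a known HIF-1 target, was at 0.05 ± 0.20 in SLC and 0.05 ± 0.11 in MLC as log2 fold change. The groups overlapped in both layers.

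**Figure D2:**
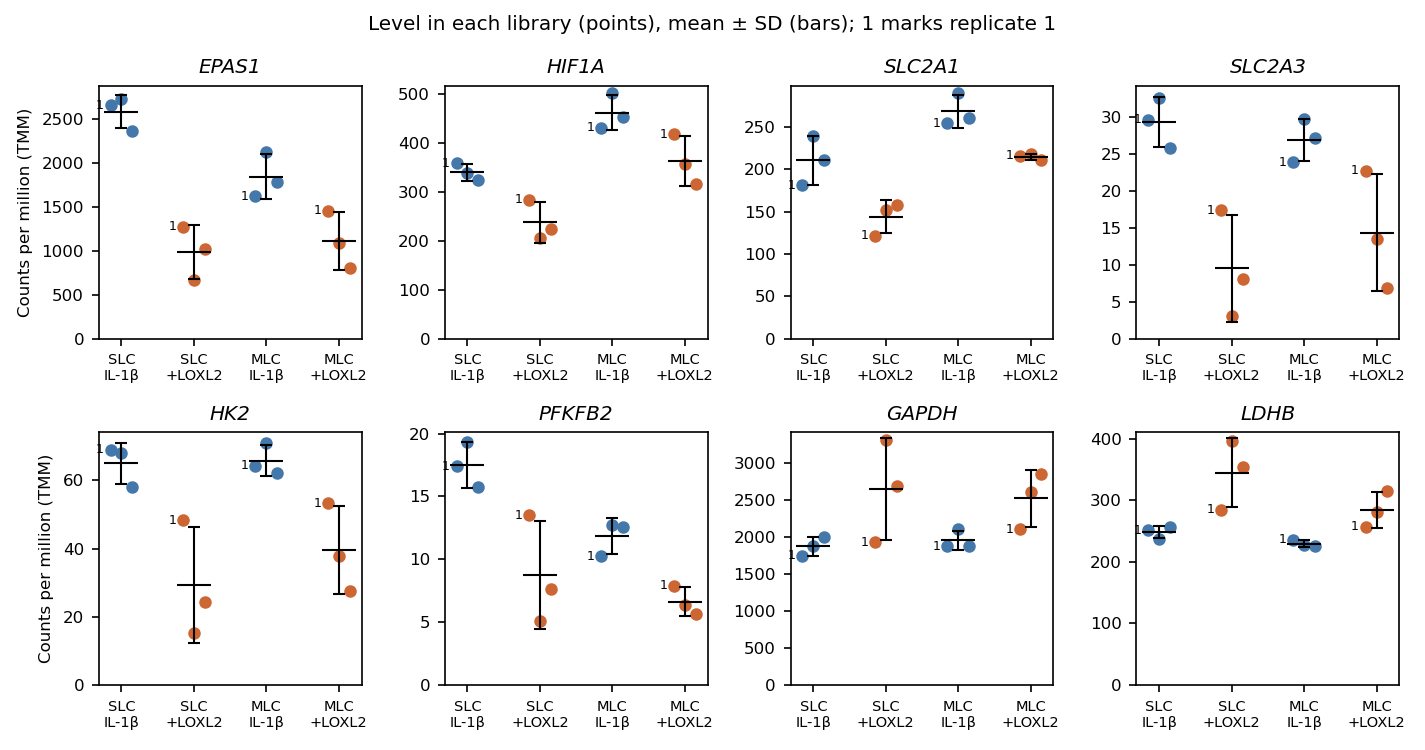
Levels in CPM on a common TMM scale (vertical axis, from 0) of 8 members in the 3 libraries of each group (points), with mean ± SD as black bars and replicate 1 marked. EPAS1, HIF1A, SLC2A1, SLC2A3, HK2 and PFKFB2 have every IL-1β+LOXL2 library below every IL-1β library of its layer, and the first treated library is the nearest to the IL-1β group in every panel except SLC2A1.

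Of 16 enzymes measured under their listed symbols, 11 had a log2 fold change above 0 in SLC and 12 in MLC, with medians of 0.27 and 0.20. In MLC, 2 were called higher (GAPDH and LDHB) and 2 lower (HK2 and PFKL). Enzyme genes took 1.10% to 1.22% of counts in the SLC IL-1β libraries and 1.12% to 1.49% in the SLC IL-1β+LOXL2 libraries. In MLC the shares were 1.21% to 1.27% and 1.28% to 1.49%, so that the MLC groups did not overlap.

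HK2, the inducible hexokinase that traps glucose in the cell, was the enzyme with the largest decrease in both layers. SLC levels were 69.0, 68.0 and 58.0 CPM under IL-1β and 48.3, 15.3 and 24.4 CPM with LOXL2 (-1.16 ± 0.38, adjusted p = 0.0747). In MLC they were 64.3, 70.9 and 62.1 CPM and then 53.3, 37.8 and 27.6 CPM (-0.73 ± 0.18, 1.66-fold lower, adjusted p = 0.0227). HK1, the constitutive hexokinase, had log2 fold changes of -0.16 ± 0.15 and -0.14 ± 0.09 in SLC and MLC, with overlapping groups. Of the phosphofructokinase genes, which encode the committed step, PFKL fell in MLC, from 8.33, 7.87 and 8.40 CPM to 6.30, 6.09 and 5.43 CPM (-0.47 ± 0.15, adjusted p = 0.0434), whereas PFKM was at -0.09 ± 0.19 and PFKP at 0.18 ± 0.09 there, neither past the threshold.

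GAPDH, the first enzyme of the energy-yielding steps, was at 1743, 1874 and 1994 CPM under IL-1β and 1929, 3303 and 2687 CPM with LOXL2 in SLC (0.48 ± 0.19, adjusted p = 0.102). Its MLC levels were 1874, 2101 and 1877 CPM and then 2101, 2602 and 2848 CPM, a 1.29-fold rise (0.37 ± 0.11, adjusted p = 0.0382). With the trend on gene span removed, its MLC change was 0.18 and did not pass (adjusted p = 0.132). The first treated library was level with the second IL-1β library, and the rise came from the other two. LDHB, the lactate dehydrogenase subunit that favours the conversion of lactate to pyruvate, was at 251, 237 and 256 CPM and then 285, 396 and 353 CPM in SLC (0.46 ± 0.13, adjusted p = 0.0706). In MLC, 236, 228 and 225 CPM rose to 257, 280 and 315 CPM (0.31 ± 0.09, 1.24-fold, adjusted p = 0.0382). LDHB was the enzyme whose groups stood apart in both layers in the upward direction.

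ALDOA, an aldolase, lay at the threshold in MLC. It was at 785, 896 and 786 CPM under IL-1β and 865, 1124 and 1112 CPM with LOXL2 (0.33 ± 0.11, adjusted p = 0.0501), and at 898, 911 and 1001 against 862, 1637 and 1284 CPM in SLC (0.42 ± 0.22, adjusted p = 0.174). ALDOC, the brain-type aldolase, had the highest enzyme fold change in both layers but few counts, 25 to 116 per library. It was at 1.29, 1.33 and 1.48 CPM and then 1.37, 3.28 and 2.91 CPM in SLC (0.87 ± 0.34, adjusted p = 0.0969), and at 2.68, 3.999 and 4.40 and then 4.65, 5.37 and 6.30 CPM in MLC (0.55 ± 0.22, adjusted p = 0.0815). ENO2, the neuronal enolase, was at 12.6, 12.1 and 15.3 CPM and then 16.6, 26.5 and 19.3 CPM in SLC (0.63 ± 0.20, adjusted p = 0.0717). Its MLC fold change was 0.26 ± 0.16 and the groups overlapped.

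The remaining enzymes, GPI, TPI1, PGK1, PGAM1, ENO1 and PKM, had log2 fold changes of -0.01 to 0.54 in SLC and 0.02 to 0.33 in MLC, none past the threshold. TPI1 and ENO1 had the smallest adjusted p of these in MLC, 0.0548 and 0.0607, and DESeq2 called both higher there, together with ALDOA. Processed copies of GAPDH, ENO1, PGK1 and other enzyme genes are common in mammalian genomes. How reads that fit several places were counted is not given in the sources used here, so the levels of these genes are uncertain to that extent.

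Regulators of flux set the pace of the pathway without being part of it. The PFKFB enzymes make and remove fructose 2,6-bisphosphate, the activator of phosphofructokinase, and the PDK kinases shut the pyruvate dehydrogenase gate into the mitochondria. PFKFB2 was the member of this role that passed in MLC. Its levels there fell from 10.2, 12.7 and 12.6 CPM to 7.91, 6.38 and 5.65 CPM (-0.83 ± 0.16, 1.78-fold lower, adjusted p = 0.0187), and in SLC they were 17.4, 19.3 and 15.8 CPM and then 13.5, 5.12 and 7.64 CPM (-1.01 ± 0.33, adjusted p = 0.0740). PFKFB2 was also the member called in the most fits that left out 1 MLC library, 3 of 6.

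PFKFB3, the isoform that HIF-1 and inflammatory signals induce, was at 95.9, 92.7 and 90.2 CPM and then 49.8, 87.5 and 83.5 CPM in SLC (-0.35 ± 0.20, adjusted p = 0.210). In MLC it was at 98.6, 130 and 102 CPM and then 97.0, 93.7 and 78.6 CPM (-0.30 ± 0.12, adjusted p = 0.0928). Here the first SLC treated library was the lowest of all 6 rather than the nearest to the IL-1β group. PDK1 had 29.2, 29.2 and 27.3 CPM against 22.6, 25.8 and 24.9 CPM in SLC (-0.24 ± 0.11, adjusted p = 0.126), and 15.2, 21.2 and 18.1 CPM against 18.2, 16.6 and 14.9 CPM in MLC (-0.13 ± 0.14, adjusted p = 0.518). PFKFB4 and PDK3 were between -0.02 and 0.31 in both layers with overlapping groups. Over the 5 regulators the median was -0.24 in SLC and -0.13 in MLC, but 0.04 and 0.02 once the relation of fold change to the genomic span of a gene was removed.

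Among the HIF regulators, the genes for both oxygen-labile HIF-α subunits fell in MLC, and no other regulator passed. EPAS1 was at 2650, 2719 and 2363 CPM in the SLC IL-1β libraries and at 1269, 665 and 1020 CPM with LOXL2, a log2 fold change of -1.40 ± 0.23 that had the smallest unadjusted p of the SLC members (0.000442; adjusted p = 0.0706). DESeq2 gave it an adjusted p of 9.34e-06. In MLC it fell 1.66-fold, from 1620, 2120 and 1779 CPM to 1452, 1085 and 797 CPM (-0.73 ± 0.17, adjusted p = 0.0215). Treated and untreated libraries were separate in both layers, with the first treated library the highest of its 3. HIF1A was at 359, 338 and 324 CPM and then 285, 205 and 225 CPM in SLC (-0.53 ± 0.14, adjusted p = 0.0706). In MLC, 432, 502 and 454 CPM fell to 419, 358 and 316 CPM (-0.35 ± 0.11, 1.27-fold lower, adjusted p = 0.0403), a change of -0.20 that did not pass with the trend on gene span removed (adjusted p = 0.122). These are mRNA levels, and the HIF-α proteins, which oxygen controls through their stability, were not measured.

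The other HIF regulators restrain HIF-α. EGLN2, a prolyl hydroxylase, was at 64.1, 69.0 and 68.3 CPM and then 75.8, 121 and 103 CPM in SLC (0.56 ± 0.17, adjusted p = 0.0708), and at 71.0, 76.9 and 73.9 and then 76.3, 98.4 and 110 CPM in MLC (0.36 ± 0.12, adjusted p = 0.0561). It was called higher by DESeq2 in both layers. EGLN1, the main oxygen sensor for HIF-1α, had log2 fold changes of -0.25 ± 0.11 in SLC and -0.25 ± 0.09 in MLC, and its groups did not overlap in either layer, but it did not pass (adjusted p = 0.127 and 0.0743). HIF1AN was at -0.15 in both layers and VHL at -0.25 in SLC and -0.19 in MLC, none past the threshold. EGLN3, itself a HIF target, was at 18.8, 16.3 and 15.1 CPM and then 11.1, 22.4 and 18.0 CPM in SLC (0.03 ± 0.24, adjusted p = 0.937), and at 11.7, 22.2 and 12.4 CPM and then 13.4, 15.9 and 13.4 CPM in MLC (-0.13 ± 0.21, adjusted p = 0.686). In the treated SLC group the first library was the lowest, and in the MLC IL-1β group the second stood above the others.

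None of the 6 HIF targets on the member list passed edgeR's test in either layer. The median over the 6 was 0.25 in SLC and 0.03 in MLC. VEGFA, the angiogenic growth factor, was at 565, 607 and 571 CPM and then 379, 444 and 474 CPM in SLC (-0.44 ± 0.11, adjusted p = 0.0706, DESeq2 adjusted p = 0.00907), with no overlap. MLC levels were 499, 616 and 526 CPM and then 481, 499 and 462 CPM (-0.19 ± 0.09, adjusted p = 0.159). VEGFA was thus the one target with a value below 0 in SLC. BNIP3, a receptor for the removal of mitochondria, was at 122, 115 and 127 CPM and then 98.6, 189 and 155 CPM in SLC (0.27 ± 0.22, adjusted p = 0.345), and at 82.7, 117 and 86.7 and then 97.5, 131 and 119 CPM in MLC (0.28 ± 0.14, adjusted p = 0.157).

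CA9, the cell-surface carbonic anhydrase, had 10 to 48 counts per library. It was at 0.826, 0.666 and 0.494 CPM and then 0.592, 1.77 and 0.909 CPM in SLC (0.73 ± 0.46, adjusted p = 0.242), and at 1.199, 2.03 and 1.67 and then 0.723, 1.22 and 1.03 CPM in MLC (-0.75 ± 0.33, adjusted p = 0.111). Its groups overlapped in both layers. ADM (adrenomedullin), NDRG1 and ANKRD37 had log2 fold changes of 0.06 to 0.35 in SLC and -0.03 to 0.24 in MLC.

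The spread of the 6 HIF targets was wide in the treated SLC and the untreated MLC group, which were singled out after the values were seen. Within the SLC IL-1β+LOXL2 group the median SD of the 6 targets was 0.60 on the log2 scale, against 0.28 for the 16 enzymes and 0.29 for all genes tested. Of the 6, CA9 and ANKRD37 had the fewest counts there (13 to 48 and 34 to 123) and the widest range. Their highest library was at 2.99 and 2.93 times their lowest. All 6 targets were lowest in the first library of that group, where 45.6% of all genes were, and 5 were highest in the second. In the MLC IL-1β group the median SD was 0.28 for the targets against 0.12 for all genes. In the SLC IL-1β and MLC IL-1β+LOXL2 groups the targets were at 0.087 and 0.17, below the 0.11 and 0.19 of all genes. The 29 other HIF targets listed had a median SD of 0.27 in the treated SLC group, where 48.3% were lowest in the first library, and 0.14 in the MLC IL-1β group. In the MLC IL-1β group the second library was highest for all 6 targets and the first lowest for all 6, against 37.9% and 32.9% of all genes. Of the 29 other HIF targets, 69% were highest in the second library there and 69% lowest in the first. The other roles leaned the same way, from 56.2% and 50% of the enzymes to 80% and 100% of the flux regulators. ADM shows the size of this spread, with 201, 541 and 390 CPM in the 3 treated SLC libraries beside 293, 279 and 306 CPM under IL-1β. The median of the targets was -0.47, 0.75 and 0.27 in those libraries, and that of the transporters -0.57, -0.58 and -0.51.

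**Figure D3:**
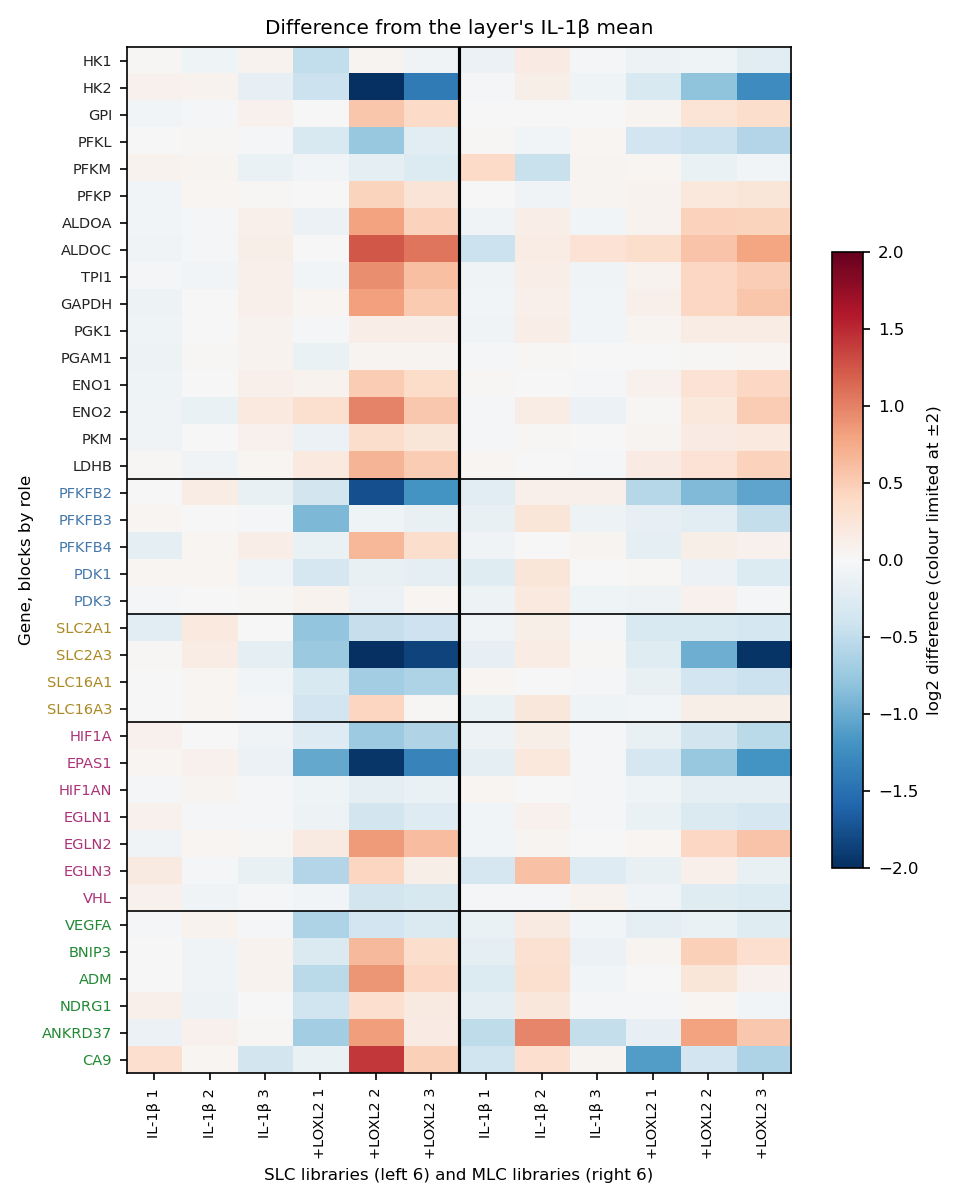
Log2 difference of each member (rows, in blocks by role) from the mean of the IL-1β libraries of its layer, in the 6 SLC and 6 MLC libraries (columns), with the colour scale limited at ±2. HK2, PFKFB2, SLC2A3 and EPAS1 are blue in all 6 IL-1β+LOXL2 libraries, and the HIF targets at the bottom change colour between libraries of the same group.

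**Figure D4:**
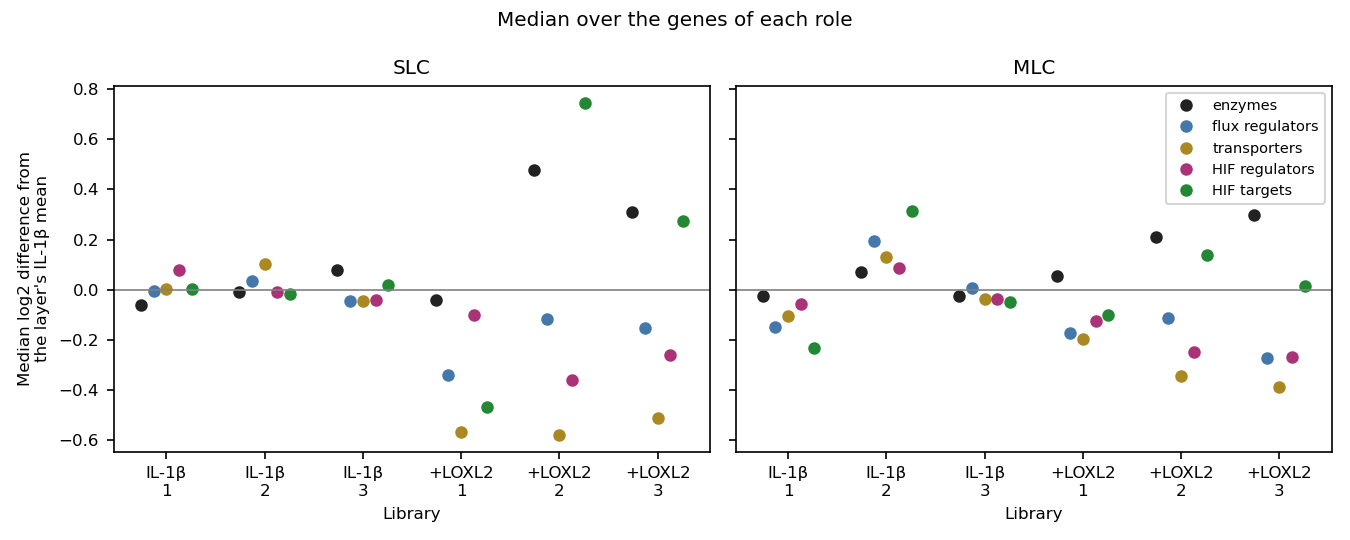
Median log2 difference from the layer's IL-1β mean over the genes of each role (points, vertical axis) in each library (horizontal axis) of SLC (left) and MLC (right). Transporters and HIF regulators are below 0 in all 6 IL-1β+LOXL2 libraries, enzymes are above 0 in 5 of these 6, and HIF targets range from -0.47 to 0.75 in the treated SLC libraries.

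Fold changes of the 2 layers, which rest on separate libraries, can be set side by side. The sign was the same in 34 of 38 members (89.5%), close to the 87.6% of all genes tested in both layers, and differed for PGAM1, EGLN3, NDRG1 and CA9, none of which passed in either layer. The absolute log2 fold change was larger in SLC for 28 members (73.7%), against 77.7% of all genes. By groups that did not overlap, 3 SLC members were higher (ENO2, LDHB and EGLN2) and 13 lower with LOXL2, against 25.1% and 23.7% of all genes, and 7 MLC members were higher and 12 lower, against 20.7% and 20.4%. In both layers more members were lower than higher by this count. The test of the difference itself, the interaction of layer and LOXL2 in 12 libraries, called no member and no gene (0%). At an unadjusted p under 0.05 it gave 1 member, CA9, against 2.26% of all genes, with an interaction of -1.48 ± 0.57 on the log2 scale (edgeR adjusted p = 0.958), and DESeq2 called none after adjustment. For EPAS1 the interaction was 0.66 ± 0.33 and for SLC2A3 0.73 ± 0.68, and the interval of each (1 SE) was wide beside the effects.

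Gene span moved with these fold changes. Across genes, Spearman's correlation of the log2 fold change with the genomic span was -0.49 in SLC and -0.48 in MLC, and -0.55 and -0.44 over the 38 members; these are correlations across genes, which share libraries and are not independent replicates. The enzymes had a median span of 16148 bp and the flux regulators 47798 bp, beside 20754 bp for all genes tested in SLC. With the span trend taken out of each library, the enzyme median was 0.20 in SLC and 0.14 in MLC, the transporter median -0.44 and -0.24, and that of the HIF regulators -0.22 and -0.20. In MLC, 7 members were then called, 2 higher against 7.88% of all genes and 5 lower against 6.78%. PFKP was gained (0.36, adjusted p = 0.0276). GAPDH and HIF1A, with the values given above, were lost, as were SLC2A1 (-0.24, adjusted p = 0.0507) and SLC16A1 (-0.24, adjusted p = 0.0597). LDHB, HK2, PFKL, PFKFB2, SLC2A3 and EPAS1 passed in both fits.

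Further genes of these pathways were counted by list, beside the 9.88% of all genes called higher and 11.7% called lower in MLC. Of 14 other glycolytic and pentose phosphate genes tested, 1 was called higher in MLC, ENO3 (0.53 ± 0.13, adjusted p = 0.0218), the muscle enolase, and 1 lower, PGM2 (-0.50 ± 0.13, adjusted p = 0.0237). PGAM2 was at 0.45 ± 0.36 and RPE at -0.24 ± 0.13 in MLC without passing. Of 11 genes for pyruvate entry into mitochondria, PDHA1, a subunit of pyruvate dehydrogenase, was the 1 called (-0.71 ± 0.22, adjusted p = 0.0391). The carrier subunit MPC2 was at 0.32 ± 0.11 (adjusted p = 0.0544), PDHB at 0.22 ± 0.10 and PDK4 at -0.90 ± 0.59. The wider HIF pathway held 2 lower calls among 7 genes, the coactivators EP300 (-0.67 ± 0.13, adjusted p = 0.0187) and CREBBP (-0.53 ± 0.11, adjusted p = 0.0194). RBX1, of the VHL ubiquitin ligase, was at 0.27 ± 0.11 and CITED2 at 0.02 ± 0.09. ARNT, the partner of both HIF-α subunits, was at -0.40 ± 0.13 in MLC (adjusted p = 0.0501) and -0.60 ± 0.10 in SLC.

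Among 29 other HIF targets, 2 rose in MLC (MIF and FAM162A) and 4 fell (PLOD2, CA12, TFRC and ERO1A), with FAM162A, PLOD2, CA12 and ERO1A named after their values were seen. Both counts were near the shares of all genes. The median was -0.12. MIF, a cytokine-like protein, rose most (0.57 ± 0.16, adjusted p = 0.0302), and HILPDA was at 0.47 ± 0.27 without passing. TFRC, the transferrin receptor, fell (-0.40 ± 0.11, adjusted p = 0.0317), and RORA was at -0.47 ± 0.18 without passing. The other 29 and the 6 member targets thus differed in the sign of their median in both layers, -0.28 against 0.25 in SLC. No gene of any of these lists passed in SLC. Among the larger SLC values were -1.39 ± 0.46 for PDHA1, -1.07 ± 0.17 for IGFBP3, -0.92 ± 0.24 for PLOD2, -0.89 ± 0.18 for EP300 and 0.94 ± 0.28 for MIF.

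The layers were compared under IL-1β alone and under IL-1β+LOXL2, in a fit on all 12 libraries. Under IL-1β, MLC had 6 members higher than SLC, against 14.3% of 14446 genes, and 6 lower, against 11.5%. SLC16A3, ALDOC, CA9, PFKP, HIF1A and SLC2A1 were higher, and NDRG1, ADM, SLC16A1, PFKL, ENO2 and PDK1 lower. A fit on only the 6 IL-1β libraries called 25 members, 11 higher against 23.9% of all genes and 14 lower against 22.3%. With LOXL2, 7 were higher, against 14.8% of all genes, and 6 lower, against 14.3%. The higher ones were SLC16A3, ALDOC, PFKP, HIF1A, SLC2A1, PGK1 and PGAM1, and the lower ones were the 6 named for IL-1β. Alternative fits lost the call of PGAM1 in 7 cases and kept it in 7. They lost that of PGK1 in 5 and kept it in 9, and lost that of ALDOC in 1. With the replicate number as a block, EGLN1 was also called lower under IL-1β+LOXL2 (-0.27, adjusted p = 0.0403, and 0.0515 without the block). The replicate numbers are not shown to pair the layers. These 2 layer comparisons and the LOXL2 comparisons share libraries.

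The lactate transporters differed in opposite directions between layers. SLC16A3 was at 20.2, 20.9 and 19.9 CPM in SLC and at 60.5, 77.2 and 62.1 CPM in MLC under IL-1β, 3.28-fold higher in MLC (log2 difference 1.71 ± 0.17, adjusted p = 1.43e-05). With LOXL2 it was at 15.5, 27.3 and 20.7 CPM in SLC and 63.8, 71.7 and 71.6 CPM in MLC (1.70 ± 0.17, adjusted p = 1.31e-05). SLC16A1, with the levels given above, was 1.78-fold lower in MLC under IL-1β (-0.83 ± 0.11, adjusted p = 0.000125). Neither gene overlapped between layers in either condition. SLC2A1 was 1.27-fold higher in MLC under IL-1β (0.35 ± 0.12, adjusted p = 0.0489), a call that was lost in 10 of 14 alternative fits (adjusted p from 0.00407 to 0.204 over the 14).

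NDRG1 and ADM were the HIF targets that were lower in MLC. NDRG1, a stress-responsive gene, was at 489, 426 and 460 CPM in SLC and 178, 237 and 196 CPM in MLC under IL-1β, 2.25-fold lower in MLC (-1.17 ± 0.17, adjusted p = 0.000217). With LOXL2 it was at 347, 580 and 521 CPM against 198, 208 and 194 CPM (-1.27 ± 0.17, adjusted p = 0.000103). ADM was at 116, 176 and 136 CPM in MLC under IL-1β and 141, 166 and 150 CPM with LOXL2, below every SLC library of the same condition, and 2.05-fold lower under IL-1β (-1.03 ± 0.27, adjusted p = 0.0127). ANKRD37, an ankyrin repeat gene with 12 to 123 counts per library, had the third largest lower value but did not pass. It was at 2.32, 2.66 and 2.57 CPM in SLC and 0.847, 2.43 and 0.867 CPM in MLC under IL-1β (-0.86 ± 0.45, adjusted p = 0.199). With LOXL2 it was at 1.55, 4.53 and 2.82 CPM against 1.09, 2.15 and 1.79 CPM (-0.86 ± 0.43, adjusted p = 0.159), and the layers overlapped in both conditions. CA9 was higher in MLC under IL-1β (1.30 ± 0.41, adjusted p = 0.0346) and at -0.18 ± 0.40 with LOXL2. ALDOC was higher in MLC in both conditions, 1.43 ± 0.31 (adjusted p = 0.00465) and 1.10 ± 0.28 (adjusted p = 0.0108). HIF1A was 1.36-fold higher in MLC under IL-1β (0.44 ± 0.13, adjusted p = 0.0269), whereas EPAS1 was at -0.49 ± 0.23 (adjusted p = 0.154). The calls of CA9 and HIF1A were each lost when any IL-1β library other than MLC replicate 1 was left out, with adjusted p up to 0.120 and 0.0992. That of ADM was lost without MLC IL-1β replicate 1 (adjusted p = 0.0637) or 3 (adjusted p = 0.0509). That of ENO2 was lost without SLC IL-1β replicate 3 (adjusted p = 0.0541) or MLC IL-1β replicate 3 (adjusted p = 0.0551).

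**Figure D5:**
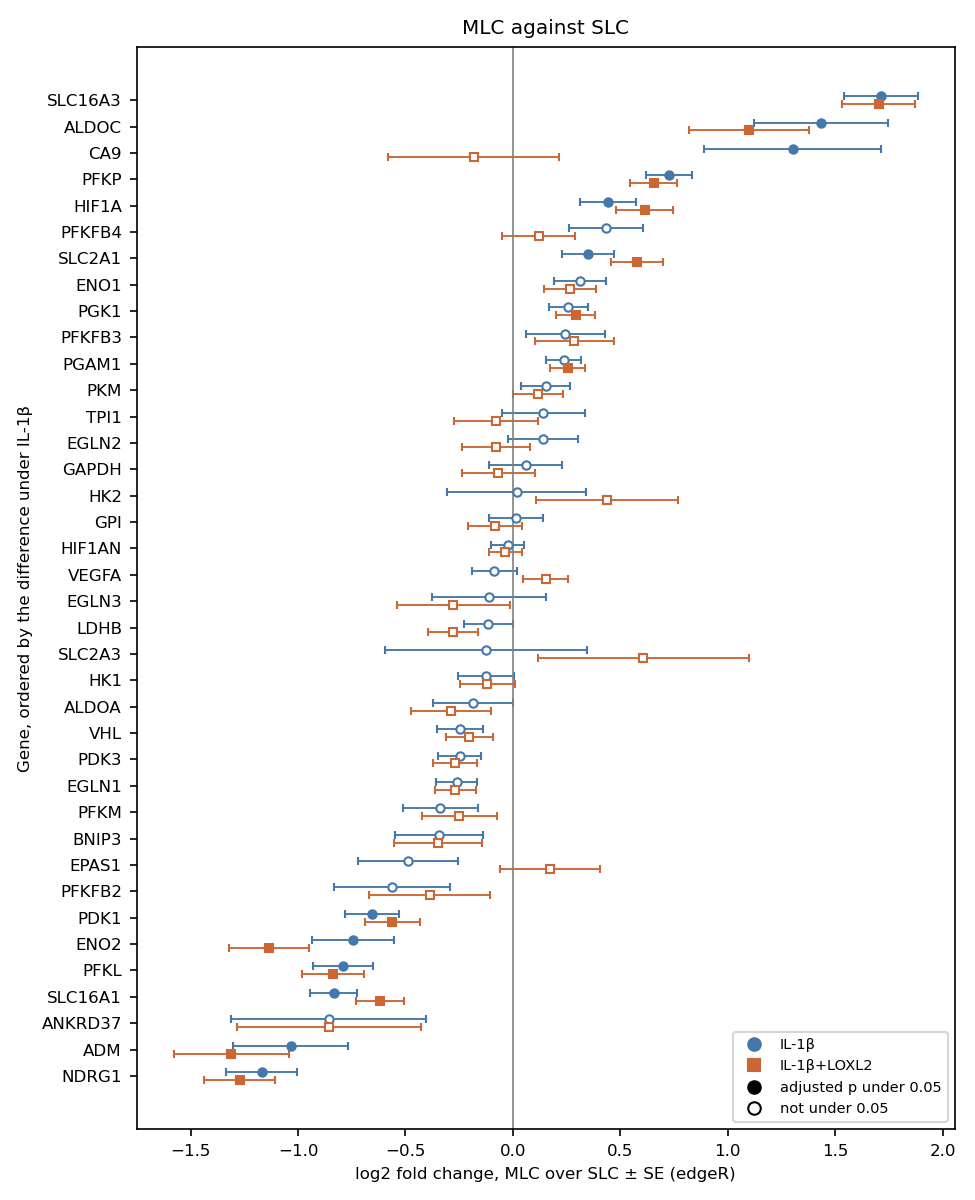
Log2 fold change of MLC over SLC with its standard error (horizontal axis) for the 38 members (vertical axis, ordered by the value under IL-1β), under IL-1β (circles) and IL-1β+LOXL2 (squares), filled where the adjusted p was under 0.05. SLC16A3 and ALDOC lie far to the right and NDRG1 and ADM far to the left in both conditions.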

How the data were processed

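RNA-seq libraries of goat TMJ cells, 3 in each combination of layer and treatment, were analysed from raw counts. Per the labels and the study's methods, the authors trimmed paired-end reads of poly-A-selected RNA, aligned the reads to goat assembly ARS1.2 and deposited a table of counts of reads per gene for each layer, made with featureCounts. The submitters' processing notes also name HISAT2. Strand settings and the treatment of reads that map to several places are not given in the sources used here. The labels name an RNeasy kit for extraction and the study's methods name TRIzol.

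Genes with at least 10 counts in at least 3 of the 6 libraries of a layer (of either layer in fits on 12 libraries) were tested across the whole table with edgeR 4.0.16 (TMM, glmQLFit, glmQLFTest) in R 4.3.3, with Benjamini-Hochberg adjustment. LOXL2 effects were fitted in the 6 libraries of a layer. Layer differences and the interaction were fitted in all 12. The SE was taken from the fold change and the F statistic, as their ratio with F under a square root. Levels are CPM on 1 TMM scale over the 12 libraries. DESeq2 1.42.0 was the alternative tool. Other alternatives changed the size factors, the filter, the samples in the fit, the replicate block and the trend of each library on genomic span, taken from RefSeq's annotation of ARS1.2. The scripts were tested on simulated counts with known changes.

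The members, roles and lists were chosen with earlier results of these data known, and so no p adjusted over a list alone is given. Every member with a row under its listed symbol is accounted for. Values in every library are given for the regulators HIF1A, EPAS1, PFKFB3, PDK1 and EGLN3, for GAPDH, LDHB, SLC2A1, VEGFA and BNIP3, for the 4 members that rose most and the 4 that fell most in each layer's LOXL2 comparison, and for the 3 with the largest layer difference in each direction under IL-1β. For other pathway lists the 2 largest changes in each direction are named.

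Replicate numbers showed no clear pairing of libraries within a layer, where deviations of same-numbered libraries correlated at -0.19 to 0.10. The same held across layers under IL-1β, at -0.084 to -0.035. With 3 libraries a group, these correlations cannot show whether same-numbered libraries shared a culture. Across layers under IL-1β+LOXL2 same-numbered libraries correlated at 0.11 to 0.54. SLC replicate 2 correlated with MLC replicate 3 at 0.39, above the 0.17 and 0.11 of same-numbered replicates 2 and 3. The main fits used no pairing, and neither the data nor the labels settle whether the numbers pair the layers there.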

Additional observations from a re-analysis of the deposited data

How the results depend on the processing

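Counts of called members changed with the fit, as did the share of all genes called. For the LOXL2 effect in SLC, DESeq2 called 11 members, 3 higher and 8 lower, against 17.6% and 15.5% of all genes. The fit on all 12 libraries called 15 (41.2% of all genes), and leaving out single libraries gave 0 to 26 (0% to 62.7%). For MLC, 16 were called with a replicate block (29.4% of all genes), 0 in the fit on all 12 libraries (0%) and 0 to 22 when single libraries were left out (0% to 48.5%). The main fits paired no libraries. In the layer fits the replicate block joined same-numbered libraries of both layers and both treatments, a pairing that their correlations do not settle. For the layers under IL-1β+LOXL2 this block called 14 members (31.3% of all genes) and added EGLN1. A replicate block called 0 in SLC (0% of all genes), 17 for the layers under IL-1β (27.9%) and 0 for the interaction (0%). For MLC against SLC under IL-1β, 25 were called in the 6 libraries alone (46.2%) and 7 to 11 with single libraries left out (18.1% to 21%). Under IL-1β+LOXL2, 10 were called in the 6 libraries alone (15.9%) and 11 to 19 with single libraries left out (21.8% to 47.3%). The fit on 12 libraries takes 1 spread for all groups. The cause of its lower count in MLC and higher count in SLC was not tested.

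Removal of the gene-span trend turned the sign of some members that had not passed. The largest of their changes before removal were -0.35 for PFKFB3 and 0.35 for ADM, both in SLC. In SLC, log2 fold changes became 0.19 for HK1, 0.042 for PFKFB3, 0.33 for PDK3, -0.10 for SLC16A3 and -0.0035 for ADM, and EGLN3 was at -0.016 with the replicate block. In MLC they became 0.080 for HK1, -0.14 for PGAM1, 0.019 for PDK1, 0.22 for PDK3, -0.048 for SLC16A3, -0.11 for ADM and 0.15 for NDRG1. With single libraries left out, SLC values ranged from -0.062 to 0.037 for PGAM1, -0.058 to 0.046 for PDK3, -0.17 to 0.23 for SLC16A3, -0.21 to 0.26 for EGLN3, -0.088 to 0.25 for NDRG1 and -0.22 to 0.54 for ANKRD37. MLC values ranged from -0.28 to 0.13 for PFKM, -0.040 to 0.092 for PFKFB4, -0.076 to 0.077 for PDK3, -0.014 to 0.17 for SLC16A3, -0.29 to 0.23 for EGLN3, -0.037 to 0.27 for ADM, -0.12 to 0.091 for NDRG1 and -0.0044 to 0.93 for ANKRD37. No direction is read for these genes.

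Size factors from DESeq2 moved no median of the enzymes, HIF regulators or HIF targets past the spread between libraries. Role medians were not computed under the 3 other filters. None of these settings turned the direction of a called member. With 3 libraries a group and wide spread in the treated SLC libraries, a member that missed the threshold is not shown to be unaffected. CA9, ANKRD37 and ALDOC rest on few counts.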
